A study of Homo sapiens with 12 samples.

Results

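The genes of cholesterol and fatty acid synthesis were followed in the Caco-2 line, which derives from a human colon cancer and serves as a model of the intestinal epithelium. The set was chosen by name with earlier results of these data known, so its counts of called genes are descriptions. It comprised 33 enzymes and regulators of both pathways. Of these, 31 were measured, each by the probe set that carried its symbol alone and had the highest mean over the 12 arrays, out of 18417 genes measured in that way. FDFT1 and HSD17B7 were not analysed here. Transcript levels were compared among 4 groups of 3 RNA samples. The untransfected group had received no exogenous DNA. The other groups were stable blasticidin-selected clones (1 µg/ml) that overexpressed HA-tagged TLR4, the receptor for bacterial lipopolysaccharide, introduced on plasmids (1 µg in each well). They carried the wild-type receptor (TLR4-WT) or one of its mutants (TLR4-D299G and TLR4-T399I). All groups were grown for 8 days before RNA was taken. None of the groups was an empty-vector line, and how many clones each line represents and whether its samples came from separate cultures are not given in the sources used here. A p-value here thus reflects how far these samples vary, which may be technical variation alone, and a mutation cannot be told apart from other differences between selected lines.

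Cholesterol is built from acetyl-CoA through mevalonate, isoprenoids, squalene and lanosterol, and fatty acids are built from the same precursor by carboxylation, chain synthesis, desaturation and elongation. Both pathways are driven by the SREBP transcription factors, which are held in the endoplasmic reticulum by INSIG proteins when sterols are plentiful and are cut free in the Golgi when sterols are scarce. In the intestine these pathways supply membranes and the lipids packed into lipoproteins.

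TLR4 itself lay between 4.59 and 5.12 on the log2 scale in untransfected cells. It lay between 8.49 and 8.71 in TLR4-WT, 8.73 and 8.89 in TLR4-D299G, and 8.29 and 8.39 in TLR4-T399I, so the lines did not overlap. D299G was 0.47 above T399I (limma adjusted p = 0.0214), while neither mutant differed from WT past the threshold. The part of the TLR4 level in the results was not tested. Array medians over all probe sets ran from 6.88 to 6.97. Epithelial markers (11 of 12 measured, including EPCAM, CDH1 and KRT8) had array means of 10.22 to 10.31 in untransfected cells and 10.38 to 10.39 in TLR4-WT. Their array means were 10.18 to 10.20 in TLR4-D299G, below all other arrays, and 10.38 to 10.42 in TLR4-T399I. Fibroblast markers (9 of 9) had array means of 5.98 to 6.02 in untransfected cells, 6.09 to 6.17 in TLR4-WT, 6.41 to 6.42 in TLR4-D299G and 6.19 to 6.27 in TLR4-T399I, with DCN, LUM and FAP below the median lower quartile of the arrays (5.25). Leukocyte markers (7 of 8) ran from 6.37 to 6.46 in untransfected cells and from 6.54 to 6.66 in the lines, and adipocyte markers (5 of 5) from 6.73 to 6.94 and from 6.83 to 7.12. Single markers moved further than these means: PDGFRA, a growth factor receptor of fibroblasts, was 1.03 higher in WT, 2.09 in D299G and 1.36 in T399I than in untransfected cells, and FCER1G, a leukocyte receptor subunit, was 1.21, 1.18 and 0.97 higher. Of the 9 fibroblast markers, 2 were called higher in WT, 3 in D299G and 2 in T399I, and 0, 0 and 1 lower. Of the 7 leukocyte markers, 2 were called higher and 2 lower in WT, 3 and 1 in D299G, and 2 and 1 in T399I. In D299G 5 of the 11 epithelial markers were called lower and 2 higher. CDH17 was at -0.88 and CDX2, an intestinal transcription factor, at -0.85 there. In WT and in T399I, 4 epithelial markers were called higher and 2 lower. Of all genes, 38.3% were called in WT, 43.3% in D299G (22.5% higher and 20.8% lower) and 36.6% in T399I. PDGFRA, FCER1G, CDH17 and CDX2 were singled out after their values were seen, and the part of any marker shift in the results was not tested.

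For most synthesis genes the group means lay within 0.5 of each other on the log2 scale, a spread not compared with that of all genes. The fatty acid desaturase FADS2 differed far more than the rest. The distance between the highest and the lowest group mean was under 0.5 on the log2 scale for 21 of the 31 genes, with a median of 0.35. It was 2.08 for FADS2 and 0.80 for FASN, the next in order. The standard deviation (SD) within a group of 3 arrays had a median of 0.04 and reached at most 0.14. A moderated F test in limma called a difference among the 4 groups for 24 of the 31 genes (Benjamini-Hochberg adjusted p under 0.05), where 41.9% of all probe sets were called. All 31 genes lay above the median lower quartile of the arrays, and the share of such probe sets called by this test was not counted.

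Counted over the 31 genes, 14 were called in TLR4-WT against untransfected cells, 3 higher and 11 lower, where 31.2% of all probe sets were called (16.1% higher and 15.1% lower). The median difference of the genes was -0.08, against 0.05 over all probe sets. In TLR4-D299G, 20 were called, 11 higher and 9 lower, beside 35.4% of probe sets (17.5% higher and 17.9% lower), with a median of 0.01. That count was 13 without D299G replicate 3 and also 13 without untransfected replicate 2, and after each array was centred on its median the split was 6 higher and 11 lower. In TLR4-T399I, 18 were called, 8 higher and 10 lower, beside 29.5% of probe sets (14.6% higher and 14.8% lower), with a median of 0.04. For the mean of the 3 lines, 16 were called, 7 higher and 9 lower, beside 39.2% of probe sets (20.3% higher and 18.9% lower). These 4 comparisons share the untransfected arrays.

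Between lines the background was lower. In D299G against WT, 13 of the 31 genes were called, 8 higher and 5 lower, beside 16.9% of probe sets (7.85% higher and 9.02% lower), and 8 were called without WT replicate 2. In T399I against WT, 10 were called, 7 higher and 3 lower, beside 10.4% of probe sets (5.9% higher and 4.48% lower). That count was 6 without WT replicate 1 and 5 without WT replicate 2, WT replicate 3 or T399I replicate 3. In D299G against T399I, 9 were called, 4 higher and 5 lower, beside 13.4% of probe sets (5.81% higher and 7.64% lower). All 31 genes lay above the median lower quartile of the arrays, and probe sets above it were called more often. In a fit of those alone, 42.3% were called in WT against untransfected cells, beside 17 of the 31 genes, 46.6% in D299G, beside 22, and 39.6% in T399I, beside 19. For the mean of the lines the share was 50.4%, beside 17. It was 24.4% in D299G against WT, beside 16, and 16% in T399I against WT, beside 10, and 19.7% in D299G against T399I, beside 12. For the mean of the lines, the share of the 31 genes called lay near that background. Of the 84 pairwise calls among these genes, 50 stayed past the threshold in all 18 alternative analyses, and 20 of the 31 genes had at least 1 such call. The share of all genes with at least 1 such call was not counted. In the paragraphs below, a member gene is said to have risen or fallen only for these 50 calls, and other differences are given as values. Over all genes with a probe set of their own, calls stayed past the threshold in every alternative that measured them for 25.4% in WT (10.7% higher and 14.7% lower), 30.1% in D299G (13.7% and 16.4%) and 23.5% in T399I (10.4% and 13.1%) against untransfected cells, where 11, 12 and 11 of the 31 genes had such calls. Among the genes above the lower quartile these shares were 29.2%, 34.3% and 27%. Between lines, 7 of the 31 genes had such calls in D299G against WT, beside 15.3% of all genes and 17.6% above the quartile. In T399I against WT 5 had them, beside 6.8% and 7.91%, and in D299G against T399I 4, beside 11.8% and 13.5%.

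**Figure D1:**
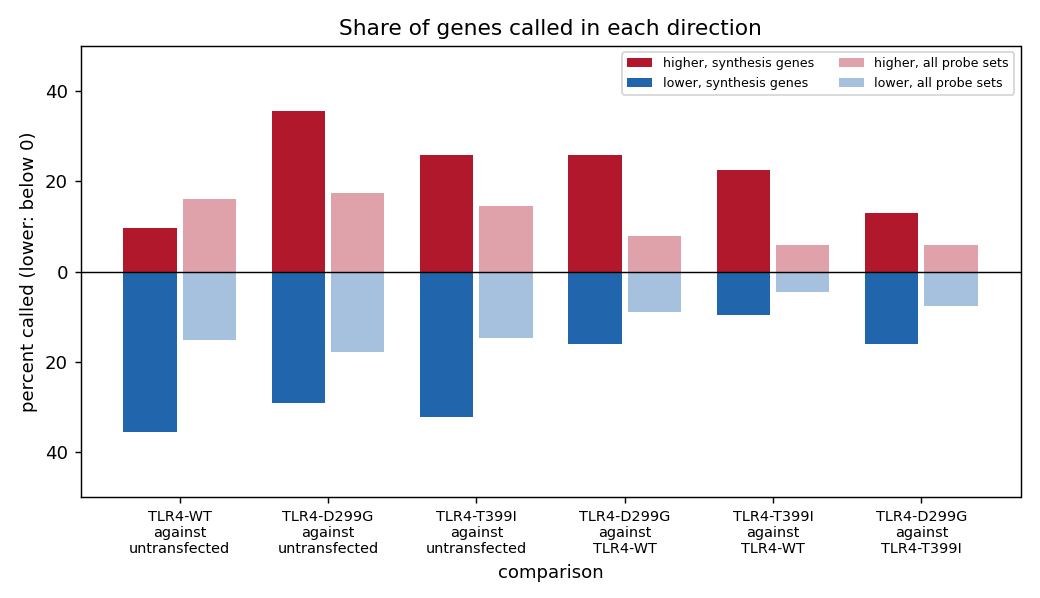
Percent of the 31 synthesis genes (dark bars) and of all 33297 probe sets (pale bars) called higher (above 0) or lower (below 0) in each pairwise comparison at an adjusted p under 0.05. In TLR4-WT against untransfected cells, 11 synthesis genes were called lower and 3 higher, beside 15.1% and 16.1% of all probe sets. In TLR4-T399I against TLR4-WT, 7 were called higher and 3 lower, beside 5.9% and 4.48% of all probe sets. Of these, 3 higher and 2 lower calls stayed past the threshold in every alternative analysis.

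FADS2 encodes the desaturase that takes the first step from linoleic and alpha-linolenic acid to longer polyunsaturated fatty acids. Its log2 values were 10.3, 10.23 and 10.23 in TLR4-T399I. They were 8.17, 8.19 and 8.17 in TLR4-WT, 8.27, 8.23 and 8.26 in TLR4-D299G, and 8.54, 8.51 and 8.58 in untransfected cells. No group overlapped another, and the T399I arrays stood apart from the other 9. FADS2 was 4.22-fold higher in T399I than in WT (log2 difference 2.08, SE 0.05, adjusted p = 8.15e-09) and 3.27-fold higher than in untransfected cells (log2 1.71, SE 0.05, adjusted p = 1.1e-08). It was 4-fold lower in D299G than in T399I (log2 -2, adjusted p = 8.16e-09). By size of difference, FADS2 was number 13 of 18417 genes between T399I and WT, number 38 between D299G and T399I, and number 114 between T399I and untransfected cells. In the other lines FADS2 fell against untransfected cells, 1.29-fold in WT (log2 -0.37, SE 0.05, adjusted p = 0.000428) and 1.22-fold in D299G (log2 -0.29, SE 0.05, adjusted p = 0.00165).

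Between T399I and WT, none of the 10 genes nearest to FADS2 on chromosome 11 passed the test, where 14.4% of all genes did. FADS1, which encodes the desaturase that acts after FADS2 in the same pathway and is its nearest neighbour, lay between 10.45 and 10.57 on all 12 arrays. The FADS1 difference between T399I and WT was 0.07 (SE 0.06, adjusted p = 0.53), and no pairwise comparison of FADS1 passed the test. FADS3, the third member of the family and the neighbour on the other side, was at 8.59, 8.43 and 8.41 in T399I and at 8.52, 8.42 and 8.64 in WT, which overlapped (log2 -0.05, SE 0.07, adjusted p = 0.774). Against untransfected cells, 4 of the 10 were called in T399I, where FADS2 also rose, beside 36.6% of all genes. TMEM258, a subunit of the protein glycosylation complex, was 0.34 higher (adjusted p = 0.0109) and FEN1, a DNA repair nuclease, 0.33 higher (adjusted p = 0.0016). FADS3 was at -0.23 (adjusted p = 0.0391) and BEST1, a chloride channel, at -0.35 (adjusted p = 0.0466), and each missed the threshold under 11 alternatives. The 10 genes, 5 on each side from DAGLA to SCGB1D1, were the nearest protein-coding genes with a probe set of their own and were picked after the FADS2 values had been seen. DAGLA, a diacylglycerol lipase that makes an endocannabinoid, was highest in another line: it was at 8.28, 8.29 and 8.29 in D299G and between 7.73 and 7.99 on the other 9 arrays (log2 0.46 against T399I, SE 0.06, adjusted p = 0.000636). FEN1 was also higher than in untransfected cells in WT (log2 0.44, adjusted p = 0.000286), with 0.06 in D299G (adjusted p = 0.437). TMEM258 was 0.50 higher in D299G (adjusted p = 0.000953) and 0.32 higher in WT (adjusted p = 0.0146) than in untransfected cells.

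**Figure D2:**
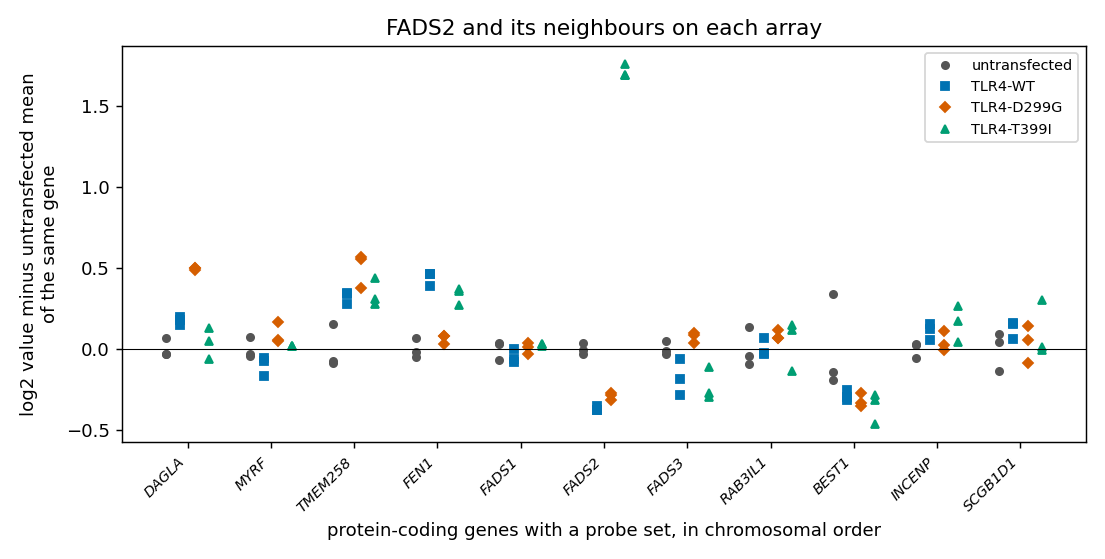
Log2 value minus the untransfected mean of the same gene, for FADS2 and the protein-coding genes on either side that have a probe set, in chromosomal order; each symbol is 1 array. In TLR4-T399I, FADS2 lies about 1.71 above untransfected cells, while FADS1 next to it stays near 0 on every array.

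The sequences before the starts of these neighbours are shown because their transcripts parted in T399I. They come from RefSeq (GRCh38.p14), 250 bases up to the base before the start, 5′ to 3′, with motif matches on either strand in capitals. The FADS2 window (chr11:61816154-61816403, plus strand) is the further downstream of 2 starts listed, and the FADS1 window (chr11:61817004-61817253, minus strand) belongs to its 1 listed start. By these coordinates the FADS2 window lies past the FADS1 start, in the direction in which FADS1 is read. Which FADS2 start was used in these cells is not known, so a motif missing here may lie before another start.
FADS2: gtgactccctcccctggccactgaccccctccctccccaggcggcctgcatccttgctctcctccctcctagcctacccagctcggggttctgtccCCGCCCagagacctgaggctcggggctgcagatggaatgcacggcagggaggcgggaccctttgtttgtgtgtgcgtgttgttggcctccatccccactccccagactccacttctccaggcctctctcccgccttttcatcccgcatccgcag
FADS1: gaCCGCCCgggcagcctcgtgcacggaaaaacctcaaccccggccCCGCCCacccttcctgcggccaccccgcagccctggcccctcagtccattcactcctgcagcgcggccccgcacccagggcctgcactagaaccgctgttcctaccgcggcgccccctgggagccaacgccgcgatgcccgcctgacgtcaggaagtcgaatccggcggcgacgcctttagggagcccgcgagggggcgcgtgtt
The motifs searched were TCACNCCAC (a sterol regulatory element, the site SREBPs bind), CCAAT (bound by NF-Y), GGGCGG (Sp1) and CACGTG (the E-box). The FADS2 window shown held GGGCGG at 1 place and the FADS1 window at 2, on the opposite strand each time. Neither window held CCAAT, the E-box or the sterol element. These letters say nothing about which factor acted in these cells.

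The regulators of the pathway moved in different directions from each other. SREBF1, which encodes the SREBP forms that favour fatty acid genes, was at 7.54, 7.41 and 7.48 in untransfected cells. It was at 8.02, 8.15 and 8.1 in TLR4-WT, 7.83, 7.83 and 7.92 in TLR4-D299G, and 7.95, 7.88 and 7.93 in TLR4-T399I. Every line lay above every untransfected array. SREBF1 rose 1.53-fold in WT (log2 0.61, SE 0.06, adjusted p = 3.69e-05), 1.30-fold in D299G (log2 0.38, SE 0.06, adjusted p = 0.000782) and 1.36-fold in T399I (log2 0.44, SE 0.06, adjusted p = 0.000343). These comparisons share the untransfected arrays. Between D299G and WT the SREBF1 difference of -0.23 (adjusted p = 0.0274) missed the threshold in a fit of these arrays alone (0.0503), without WT replicate 2 (0.11) or 3 (0.0755), and without D299G replicate 1 (0.0916) or 2 (0.0948).

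SREBF2, which encodes the SREBP that favours cholesterol genes, was lowest in D299G, at 9.22, 9.06 and 9.23. It was at 9.62, 9.6 and 9.51 in WT, 9.62, 9.57 and 9.66 in T399I, and 9.48, 9.51 and 9.26 in untransfected cells. The D299G arrays lay below all others. SREBF2 was 1.33-fold lower in D299G than in WT (log2 -0.41, SE 0.08, adjusted p = 0.00466) and 1.36-fold lower than in T399I (log2 -0.45, SE 0.08, adjusted p = 0.00332). Against untransfected cells the D299G difference of -0.25 (adjusted p = 0.0347) missed the threshold without D299G replicate 1 (0.0532), 2 (0.129) or 3 (0.051) and without untransfected replicate 1 (0.104) or 2 (0.12).

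INSIG1, a retention protein that holds SREBPs back when sterols are plentiful and is itself an SREBP target, was also lowest in D299G. Its values there were 10.49, 10.5 and 10.45, against 11.01, 10.96 and 11.04 in untransfected cells. INSIG1 was at 10.77, 10.8 and 10.73 in WT and at 11.02, 10.79 and 10.89 in T399I. No D299G array reached any other array, while T399I overlapped both WT and untransfected cells. INSIG1 fell 1.44-fold in D299G against untransfected cells (log2 -0.52, SE 0.07, adjusted p = 0.000145) and was 1.34-fold lower than in T399I (log2 -0.42, SE 0.07, adjusted p = 0.00157). The difference between D299G and WT was -0.29 (adjusted p = 0.0121), and missed the threshold without WT replicate 2 (0.0514) or D299G replicate 3 (0.0516). That between WT and untransfected cells was -0.24 (adjusted p = 0.0204), and missed without WT replicate 1 (0.0541) or 3 (0.0708) or untransfected replicate 1 (0.0512).

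STARD4, a carrier that moves cholesterol between membranes, was at 10.94, 10.95 and 10.87 in untransfected cells and between 10.49 and 10.7 on all 9 arrays of the lines. STARD4 fell 1.27-fold in WT (log2 -0.35, SE 0.07, adjusted p = 0.00228), 1.20-fold in D299G (log2 -0.26, adjusted p = 0.00945) and 1.27-fold in T399I (log2 -0.35, adjusted p = 0.00216).

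The windows before the starts of INSIG1 (chr7:155297628-155297877, plus strand) and SREBF2 (chr22:41832855-41833104, plus strand) are shown because both transcripts were lowest in D299G. They were read and marked in the same way from RefSeq.
INSIG1: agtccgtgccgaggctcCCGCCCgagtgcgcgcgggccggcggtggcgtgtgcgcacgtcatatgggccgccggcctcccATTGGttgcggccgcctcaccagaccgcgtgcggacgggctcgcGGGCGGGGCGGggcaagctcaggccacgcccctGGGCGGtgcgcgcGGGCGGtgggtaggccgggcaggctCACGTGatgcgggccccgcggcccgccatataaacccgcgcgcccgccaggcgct
SREBF2: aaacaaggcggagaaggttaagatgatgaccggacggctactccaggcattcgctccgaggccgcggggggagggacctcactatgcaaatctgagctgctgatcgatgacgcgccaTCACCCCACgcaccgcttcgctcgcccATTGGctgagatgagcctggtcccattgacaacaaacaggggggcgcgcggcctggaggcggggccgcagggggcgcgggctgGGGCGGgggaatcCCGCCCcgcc
SREBF2 was the 1 gene of 28 synthesis genes with a window that held TCACNCCAC, from 133 to 125 bases before its start, where 1.19% of 14239 array genes with a window held it. The INSIG1 window held GGGCGG at 5 places, of which 2 overlap by a base, and CACGTG 55 to 50 bases before its start. Both windows held CCAAT on the opposite strand. Over the 28 genes, 21 held CCAAT (75%, against 40.4% of array genes), 26 held GGGCGG (92.9% against 63.7%) and 3 held CACGTG (10.7% against 9.80%). These shares are descriptions of the letters in the windows.

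**Figure D3:**
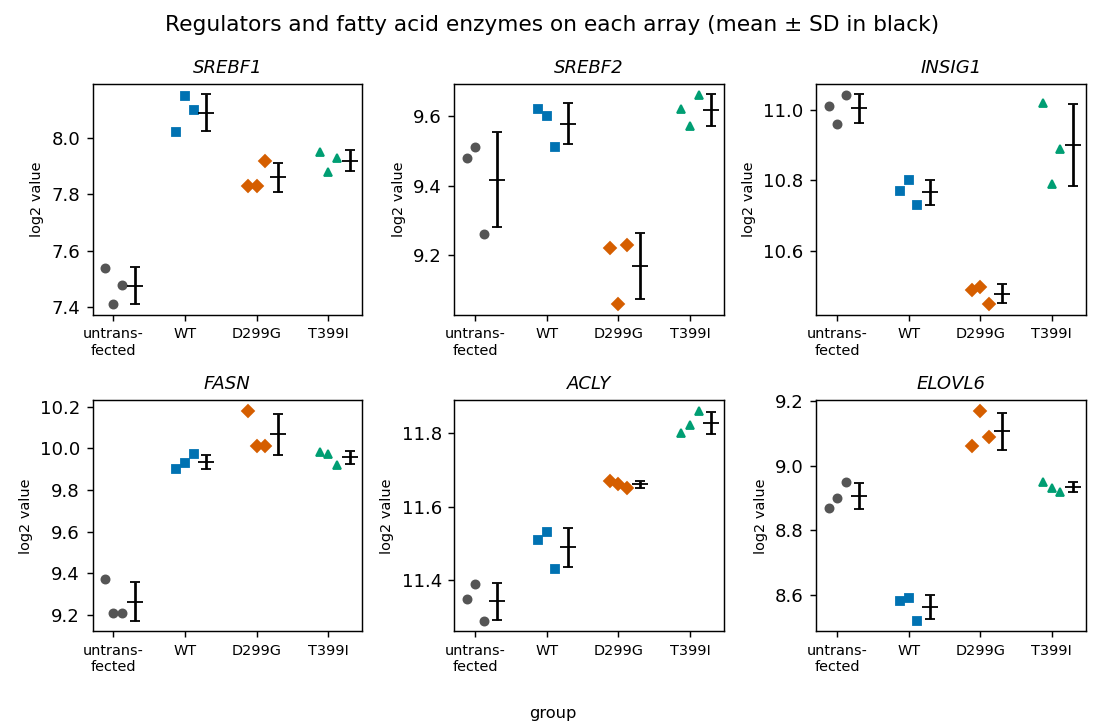
Log2 value of SREBF1, SREBF2, INSIG1, FASN, ACLY and ELOVL6 on each array by group, with the mean and SD of 3 arrays in black beside each group; each panel has its own axis, which does not start at 0. SREBF1 and FASN lie above untransfected cells in all 3 lines, SREBF2 and INSIG1 are lowest in TLR4-D299G, ACLY is highest in TLR4-T399I and ELOVL6 is lowest in TLR4-WT.

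Of the 5 fatty acid synthesis enzymes, 1 rose in WT, 3 in D299G and 2 in T399I against untransfected cells in every alternative analysis, and 0 fell, beside 10.7%, 13.7% and 10.4% of all genes kept higher. FASN, the fatty acid synthase that builds palmitate, was at 9.37, 9.21 and 9.21 in untransfected cells. Its values were 9.9, 9.93 and 9.97 in WT, 10.18, 10.01 and 10.01 in D299G, and 9.98, 9.97 and 9.92 in T399I. All 9 arrays of the lines lay above the untransfected arrays, and the lines did not differ from each other past the threshold (log2 differences of 0.02 to 0.13). FASN rose 1.59-fold in WT (log2 0.67, SE 0.07, adjusted p = 4.33e-05), 1.75-fold in D299G (0.80, adjusted p = 1.02e-05) and 1.62-fold in T399I (0.69, adjusted p = 3.26e-05).

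ACLY, which splits citrate to supply cytosolic acetyl-CoA to both pathways, was at 11.35, 11.39 and 11.29 in untransfected cells and at 11.8, 11.82 and 11.86 in T399I. It was at 11.67, 11.66 and 11.65 in D299G and at 11.51, 11.53 and 11.43 in WT, so the groups did not overlap. ACLY rose 1.40-fold in T399I (log2 0.48, SE 0.06, adjusted p = 8.97e-05) and 1.25-fold in D299G (log2 0.32, adjusted p = 0.00137) against untransfected cells. Its difference in WT was 0.15 (adjusted p = 0.0706), and T399I was 1.26-fold above WT (adjusted p = 0.00343). ACACA, the acetyl-CoA carboxylase that commits carbon to fatty acids, was at 9.48, 9.44 and 9.37 in D299G and at 9.16, 9.15 and 9.02 in untransfected cells. It rose 1.25-fold there (log2 0.32, SE 0.08, adjusted p = 0.00922), beside differences of 0.24 in T399I and 0.13 in WT. ME1, an NADPH-producing malic enzyme, lay between 10.84 and 11.16 on all arrays. ACSS2, which makes acetyl-CoA from acetate, lay between 10.18 and 10.55.

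Of the 6 desaturases and elongases, 3 fell in WT, 2 fell in D299G, and 1 rose and 1 fell in T399I in every alternative analysis, beside 14.7%, 16.4% and 13.1% of all genes kept lower. ELOVL5, which extends polyunsaturated fatty acids, was at 11.84, 11.87 and 11.85 in untransfected cells. It was at 11.42, 11.34 and 11.3 in WT, 11.5, 11.47 and 11.54 in D299G, and 11.5, 11.51 and 11.45 in T399I. ELOVL5 fell 1.41-fold in WT (log2 -0.50, SE 0.06, adjusted p = 7.28e-05), 1.27-fold in D299G (log2 -0.35, adjusted p = 0.000694) and 1.29-fold in T399I (log2 -0.37, adjusted p = 0.000595). Thus the elongase that acts on FADS2 products was lower in T399I, where FADS2 was higher.

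ELOVL6, which extends palmitate to stearate, was at 8.58, 8.59 and 8.52 in WT and at 9.06, 9.17 and 9.09 in D299G. Its values were 8.95, 8.93 and 8.92 in T399I and 8.87, 8.9 and 8.95 in untransfected cells, which overlapped. ELOVL6 fell 1.27-fold in WT against untransfected cells (log2 -0.34, SE 0.06, adjusted p = 0.00102). It was 1.46-fold higher in D299G than in WT (log2 0.54, SE 0.06, adjusted p = 6.91e-05) and 1.29-fold higher in T399I than in WT (adjusted p = 0.00207). SCD, which introduces the first double bond into saturated chains, lay between 12.31 and 12.62 on all 12 arrays, and its largest difference was -0.20 in T399I against untransfected cells (adjusted p = 0.0263).

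Changes ran both ways among the 9 enzymes from squalene to cholesterol: in every alternative analysis 1 rose and 3 fell in WT, 1 rose and 2 fell in D299G, and 1 rose and 3 fell in T399I. The shares of all genes with such calls, either way, were 25.4%, 30.1% and 23.5%. TM7SF2, a sterol reductase, was at 10.6, 10.52 and 10.55 in untransfected cells, 10, 9.94 and 9.98 in WT, 10.25, 10.18 and 10.19 in D299G, and 10.08, 10.13 and 10.08 in T399I. It fell 1.50-fold in WT (log2 -0.58, SE 0.05, adjusted p = 1.98e-05), 1.27-fold in D299G (log2 -0.35, adjusted p = 0.000578) and 1.38-fold in T399I (log2 -0.46, adjusted p = 0.000103). DHCR7, the reductase that completes cholesterol, went the other way in the mutants. It was at 12.26, 12.23 and 12.23 in D299G and 12.25, 12.17 and 12.21 in T399I, against 11.89, 11.92 and 11.87 in untransfected cells. DHCR7 rose 1.27-fold in D299G (log2 0.35, SE 0.05, adjusted p = 0.000472) and 1.25-fold in T399I (log2 0.32, SE 0.05, adjusted p = 0.001). In WT, at 11.98, 12.02 and 11.99, its difference was 0.10 (adjusted p = 0.159).

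MSMO1, which removes the methyl groups at the fourth carbon of the sterol ring, was at 11.39, 11.41 and 11.41 in untransfected cells and at 11.33, 11.48 and 11.47 in D299G, which overlapped. It was at 11.03, 11 and 10.97 in WT and at 11.18, 11.07 and 11.14 in T399I. MSMO1 fell 1.32-fold in WT (log2 -0.40, SE 0.06, adjusted p = 0.0006) and 1.21-fold in T399I (log2 -0.27, SE 0.06, adjusted p = 0.00635), and was 1.34-fold higher in D299G than in WT (adjusted p = 0.000622). NSDHL, a dehydrogenase that works in the same demethylation, was at 10.03, 10.09 and 10.04 in untransfected cells and 10.17, 10.2 and 10.11 in WT. Its values were 9.62, 9.62 and 9.59 in D299G and 9.66, 9.75 and 9.86 in T399I. NSDHL fell 1.36-fold in D299G against untransfected cells (log2 -0.44, SE 0.06, adjusted p = 0.000322). It was 1.46-fold lower in D299G than in WT (log2 -0.55, SE 0.06, adjusted p = 0.000144) and 1.32-fold lower in T399I than in WT (log2 -0.40, SE 0.06, adjusted p = 0.00243). MSMO1 and NSDHL, which work in the same demethylation, thus had their lowest values in different lines.

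EBP, the sterol isomerase, was at 10.78, 10.92 and 10.87 in T399I and at 11.38, 11.38 and 11.43 in D299G. It was at 11.23, 11.17 and 11.23 in WT and 11.24, 11.15 and 11.17 in untransfected cells, which overlapped. EBP fell 1.26-fold in T399I against untransfected cells (log2 -0.33, SE 0.06, adjusted p = 0.00169), and D299G was 1.45-fold above T399I (log2 0.54, SE 0.06, adjusted p = 0.000131). SC5D, a sterol desaturase near the end of the pathway, was at 11.67, 11.58 and 11.62 in WT and 12.06, 12.14 and 12.2 in D299G. It was at 11.85, 11.84 and 11.89 in T399I and 11.92, 11.93 and 11.95 in untransfected cells, so that no group overlapped another. SC5D fell 1.24-fold in WT (log2 -0.31, SE 0.06, adjusted p = 0.00224) and was 1.42-fold higher in D299G than in WT (log2 0.51, SE 0.06, adjusted p = 0.000129). SQLE, the squalene epoxidase that controls flux into sterols, was at 11.53, 11.48 and 11.52 in WT and at 11.25, 11.18 and 11.27 in untransfected cells. SQLE rose 1.21-fold in WT (log2 0.28, SE 0.06, adjusted p = 0.00323), with differences of 0.24 in T399I and 0.16 in D299G. LSS, which closes the sterol rings, lay between 9.93 and 10.25 on all arrays, and CYP51A1, the lanosterol demethylase, between 12.13 and 12.36.

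Of the 7 mevalonate and isoprenoid enzymes, at most 1 in each pairwise comparison stayed past the threshold in every alternative analysis. Of all genes, 6.8% (T399I against WT) to 30.1% (D299G against untransfected cells) did. HMGCS1, which makes HMG-CoA, was at 12.79, 12.81 and 12.8 in untransfected cells and at 12.5, 12.41 and 12.42 in T399I. HMGCS1 fell 1.28-fold there (log2 -0.36, SE 0.05, adjusted p = 0.0005). Its values were 12.67, 12.66 and 12.61 in WT and 12.61, 12.62 and 12.61 in D299G. IDI1, the isopentenyl diphosphate isomerase, was at 12.49, 12.53 and 12.58 in untransfected cells and at 12.21, 12.28 and 12.23 in WT, a fall of 1.23-fold (log2 -0.29, SE 0.06, adjusted p = 0.00255). The mutants also lay below untransfected cells, with IDI1 differences of -0.18 in T399I (adjusted p = 0.0328) and -0.16 in D299G (adjusted p = 0.0503). MVD, the mevalonate diphosphate decarboxylase, was at 10.26, 10.04 and 10.22 in D299G, at 9.62, 9.82 and 9.82 in WT and at 9.91, 9.69 and 9.81 in untransfected cells. MVD was 1.34-fold higher in D299G than in WT (log2 0.42, SE 0.09, adjusted p = 0.00641) and 1.29-fold higher than in untransfected cells (log2 0.37, adjusted p = 0.00749). In T399I, at 10.13, 10.01 and 10.04, MVD was 0.31 above WT (adjusted p = 0.0493) and 0.26 above untransfected cells (adjusted p = 0.0479). Neither T399I difference stayed past the threshold in every alternative analysis. The remaining members of the group had group means no more than 0.28 apart on the log2 scale (ACAT2, a thiolase, the kinases MVK and PMVK, and FDPS, the farnesyl diphosphate synthase).

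Related genes were followed from 6 lists (77 of 96 listed genes measured), which were also chosen with earlier results of these data known. The background for their counts against untransfected cells is the share of all 18417 genes called, 38.3% in WT (19.3% higher and 19% lower), 43.3% in D299G (22.5% and 20.8%) and 36.6% in T399I (18.1% and 18.5%). Of 9 genes that process SREBPs or feed back on them, 4 were called lower in each line, 0 were called higher and 5 were not called, so the share called in all (44.4%) lay near the background. MBTPS2, the protease that makes the last cut in SREBP release, fell by 0.79 on the log2 scale in T399I (9.74 ± 0.08 to 8.95 ± 0.18, SD, n = 3, adjusted p = 0.000106). INSIG2, the second retention protein, fell by 0.54 in T399I (adjusted p = 0.000139) and 0.45 in WT (adjusted p = 0.000493). ERLIN1, a membrane protein that restrains SREBP activation, fell by 0.47 in WT (adjusted p = 0.000179).

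Other sterol synthesis genes were called lower for 4 of 6 in WT (1 higher), where 19% of all genes were, and for 2 in T399I (2 higher), where 18.5% were. In D299G 1 was higher and 3 lower, but only 2 in all were called without D299G replicate 1, D299G replicate 3 or untransfected replicate 1. GGPS1, which makes the geranylgeranyl group used to anchor proteins, fell by 0.71 in WT (9.21 ± 0.10 to 8.49 ± 0.02, adjusted p = 1.67e-05). DHDDS, which makes dolichol chains, fell by 0.55 in WT (adjusted p = 0.000592), and ERG28, a scaffold of the demethylation complex that holds NSDHL, fell by 0.53 in WT (adjusted p = 0.000159).

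Genes of sterol uptake, movement and esterification went both ways, with 4 higher and 6 lower of 16 in WT, 6 and 6 in D299G, and 2 and 7 in T399I. The shares called, 62.5%, 75% and 56.3%, stood beside 38.3%, 43.3% and 36.6% of all genes. ABCA1, the pump that exports cholesterol, fell by 2.18 in T399I, 1.23 in WT and 0.71 in D299G (9.70 ± 0.16 in untransfected cells and 7.53 ± 0.16 in T399I, adjusted p = 1.37e-07). ABCA1 is induced by oxysterols through LXR, as is MYLIP, a ligase that degrades lipoprotein receptors, but the activity of LXR was not tested here. MYLIP fell by 1.04 in WT (adjusted p = 1.41e-05) and 0.46 in T399I (adjusted p = 0.0035). LIPA, the lysosomal lipase that frees cholesterol from its esters, fell by 1.06 in WT (adjusted p = 5.55e-07), 0.62 in D299G and 0.91 in T399I.

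Other genes of fatty acid synthesis, elongation, desaturation and activation were lower more often than higher in every line, with 10 of 18 lower in WT, 9 in D299G and 9 in T399I, and 2, 3 and 2 higher, where 19%, 20.8% and 18.5% of all genes were called lower. ACSL1, which activates long-chain fatty acids, fell by 2.44 in WT (9.65 ± 0.07 to 7.21 ± 0.09, adjusted p = 2.74e-07). ELOVL3, an elongase of saturated chains, fell by 1.94 in WT, 1.01 in D299G and 1.20 in T399I. SCD5, the second stearoyl-CoA desaturase, fell by 1.31 in D299G (adjusted p = 1.52e-05). FASN, described above, rose in the same lines.

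Citrate and NADPH suppliers and lipogenic regulators went both ways, with 3 higher and 4 lower of 13 in WT, 3 and 4 in D299G (4 called in all without D299G replicate 3), and 2 and 5 in T399I. The share called was 53.8% in each line, beside 38.3%, 43.3% and 36.6% of all genes. PPARG, a nuclear receptor that favours lipid storage, rose by 1.28 in WT (8.30 ± 0.12 to 9.58 ± 0.05, adjusted p = 5.3e-07) and 0.77 in T399I, and was at 8.38 ± 0.05 in D299G. GPAM, which starts triglyceride assembly, fell by 1.41 in T399I (adjusted p = 3.35e-07), and was at -0.81 in WT and -0.73 in D299G against untransfected cells. MID1IP1, an activator of acetyl-CoA carboxylase, was 0.77 higher in D299G than in T399I (adjusted p = 0.000116).

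Fatty acid oxidation genes were lower or not called in WT (0 higher and 8 lower of 15) and D299G (0 and 8), while 3 were higher and 8 lower in T399I. Of all genes, 19%, 20.8% and 18.5% were called lower. CPT1A, which admits fatty acids to mitochondria, was at 8.57 ± 0.15 in T399I and 7.19 ± 0.09 in WT, beside 8.00 ± 0.08 in untransfected cells. CPT1A was 1.37 higher in T399I than in WT (adjusted p = 7.3e-06). EHHADH, a peroxisomal oxidation enzyme, fell by 0.99, 0.93 and 0.91 in WT, D299G and T399I. PPARA, the nuclear receptor that drives oxidation genes, fell by 0.90 in D299G (adjusted p = 6.64e-05).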

How the data were processed

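RNA from 12 samples of Caco-2 cells was hybridised to Affymetrix whole-transcript arrays, 1 array per sample. The submitters' processing notes name RMA (background correction, quantile normalisation and probe summary) within Affymetrix Expression Console 1.0. The authors' deposited log2 values, 33297 per array, were used with no further scaling or filter, and 0 value columns were left unmapped. Arrays carry no read depth; their number limits the precision. Gene names came from the platform annotation. The 6 pairwise differences and the mean of the 3 lines against untransfected cells were fitted on all 12 arrays by limma 3.58.1 (R 4.3.3) with 8 residual degrees of freedom, and two-sided p-values, with Benjamini-Hochberg adjustment across every probe set, were called under 0.05. The fit was checked on simulated data. The members and lists were chosen with earlier results of these data known. The naming rule took members with a called difference of at least 0.7 between groups that did not overlap (FADS2 and FASN), with SREBF1, SREBF2 and INSIG1, and up to 3 genes per related list. Other members were described in full after their values were seen. Alternatives were centred arrays, a fit of the compared arrays only, probe sets above the lower quartile, a trended robust prior, a replicate block, the mean of all probe sets of a gene, and each array left out.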

Additional observations from a re-analysis of the deposited data

Results flagged for a closer look

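SC5D and ELOVL6 differed between TLR4-D299G and TLR4-WT by 0.51 and 0.54 on the log2 scale (limma adjusted p = 0.000129 and 6.91e-05), with opposite signs against untransfected cells: SC5D was 0.20 higher in D299G and 0.31 lower in WT, and ELOVL6 0.20 higher and 0.34 lower. EBP differed between D299G and T399I by 0.54 (adjusted p = 0.000131), being 0.21 higher and 0.33 lower than in untransfected cells. The part of each on the D299G side was weak. The SC5D difference in D299G against untransfected cells (adjusted p = 0.0208) fell short without D299G replicate 2 (0.0594) or 3 (0.0871) or untransfected replicate 1 (0.0555) or 2 (0.0531). The ELOVL6 difference (0.0184) missed without D299G replicate 2 (0.0759) or untransfected replicate 1 (0.0595), and the EBP difference (0.0185) without D299G replicate 3 (0.068) or untransfected replicate 2 (0.0618). FADS2 differed by 2.08 between T399I and WT and by -2 between D299G and T399I, since it rose by 1.71 in T399I and fell in WT and D299G.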

How the results depend on the processing

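Of the 84 pairwise calls among the 31 genes, 34 fell short of the threshold under at least 1 of 18 alternatives, 0 changed sign, and 20 of the 102 differences not called passed under at least 1. A fit of the compared arrays alone lost 26 calls and brought the count from 9 to 4 in D299G against T399I, from 10 to 5 in T399I against WT and from 18 to 11 in T399I against untransfected cells. It has fewer arrays to estimate the spread. Centred arrays lost 9 calls and gained 4, and the mean of all probe sets of a gene changed 0 calls. With 1 array left out, the counts ran from 13 to 22 in D299G against untransfected cells, 8 to 14 in D299G against WT and 5 to 10 in T399I against WT. Deviations from the group mean correlated at -0.08 to 0.27 (median 0.06) between same-numbered arrays of different groups. Between differently numbered arrays they correlated at -0.27 to 0.21 (median -0.03). These ranges overlap, so they cannot decide whether the replicate number in the labels pairs the samples. With that number as a replicate block, 7 calls were lost and 1 gained (20 called in D299G, 13 in WT and 16 in T399I against untransfected cells). The 12 arrays and their unknown background level limit what small differences can show.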
